A study of Mus musculus with 4 samples.

Results

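Macrophages are the resident phagocytes of the fetal gonad, where they clear dying cells and take part in the remodelling of vessels. They derive from precursors of the yolk sac and fetal liver, are sustained by signalling through the receptor Csf1r, and are recognised by genes for phagocytosis, complement and lysosomal degradation. Sall1, a zinc-finger transcription factor of the kidney and limb, also marks microglia, the macrophages of the brain. The 10 genes described here, Csf1r, Cx3cr1, C1qa, C1qb, C1qc, Mrc1, Aif1, Lyz2, Fcgr3 and Cd68, were taken by name as genes of tissue macrophages, and all 10 were found among the 34682 gene symbols of the count table. The question was whether their levels followed Sall1 across the libraries.

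The data came from developing mouse ovaries at E13.5 (days of embryonic development). Of the 4 libraries, 2 were from Sall1-overexpressing mutant ovaries and 2 from wild-type ovaries, numbered replicate 1 and 2 in each group. In the mutants, a BAC (a large genomic insert cloned in bacteria) with the promoter and regulatory elements of Wt1 carries the Sall1 coding sequence, and Wt1 is active in the somatic cells of the gonad. The transgene was brought in through female embryonic stem cells aggregated with morulae. The methods derive these cells from C57BL/6J embryos, but elsewhere name either C57BL/6J or a C57BL/6J hybrid background for the transgenic experiments. The sources used here do not give the number of clones or embryos behind a library, or the share of cells from the host embryo. The wild-type columns carry the letters B6, while the methods name CD1 for wild-type gonads, and the text calls the controls littermates. The p-values therefore measure the spread between these libraries.

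Library totals lay between 11036313 and 17869840 counts, and the 10 genes had between 18 and 1880 counts in a library. Counts were scaled by TMM, which corrects for library composition, to CPM (the share of a library in units of 1e-06), and all 10 genes passed the filter on low counts, together with 15442 genes in all. The labelled tissue was checked with genes of ovarian somatic cells and germ cells, whose summed levels lay between 937 and 1151 CPM and between 1246 and 1489 CPM in the 4 libraries. Among macrophage markers, Adgre1 (F4/80) had 0 counts in all 4 libraries, and so did Emr1, an older name of the same gene with a row of its own. Whether the counting lost reads between the 2 rows was not tested, so that nothing is concluded about this marker. Spi1, which encodes the myeloid factor PU.1, had between 10 and 35 counts.

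Upstream sequences are shown for Lyz2 and Mrc1, for Lyz1 as the neighbouring copy of Lyz2, and for C1qb of the C1q cluster. Among the macrophage genes with a promoter entry, Lyz2 and Mrc1 differed most between the replicate numbers. Of the 10 genes, 8 matched a promoter entry of RefSeq on GRCm38.p6, all but C1qa and Csf1r. The 250 bases before the annotated start are given. Lyz2 lies at chr10:117282273-117282522 on the minus strand and Lyz1 at chr10:117292869-117293118 on the same strand. Their windows were identical at 200 of 248 aligned bases (80.6%), and capitals mark the longest run shared by both, of 50 bases.
Lyz2: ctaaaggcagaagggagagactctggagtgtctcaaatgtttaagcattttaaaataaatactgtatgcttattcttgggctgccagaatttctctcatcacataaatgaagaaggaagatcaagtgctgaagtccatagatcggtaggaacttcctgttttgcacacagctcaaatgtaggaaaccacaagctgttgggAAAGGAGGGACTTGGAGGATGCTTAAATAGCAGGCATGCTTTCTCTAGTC
Lyz1: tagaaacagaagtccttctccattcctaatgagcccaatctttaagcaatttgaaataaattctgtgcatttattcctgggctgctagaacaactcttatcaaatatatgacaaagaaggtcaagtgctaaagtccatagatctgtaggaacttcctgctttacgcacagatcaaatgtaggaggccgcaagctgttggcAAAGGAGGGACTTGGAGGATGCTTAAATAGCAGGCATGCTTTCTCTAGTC
The Mrc1 window lies at chr2:14229164-14229413 on the plus strand and the C1qb window at chr4:136886201-136886450 on the minus strand. Capitals mark GAGGAA or its reverse complement TTCCTC, the core read by PU.1 and related ETS factors.
Mrc1: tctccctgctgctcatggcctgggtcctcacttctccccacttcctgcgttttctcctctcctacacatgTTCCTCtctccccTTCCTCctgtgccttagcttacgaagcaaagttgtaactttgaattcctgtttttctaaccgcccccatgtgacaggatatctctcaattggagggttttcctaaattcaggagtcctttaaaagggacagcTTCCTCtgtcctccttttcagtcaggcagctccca
C1qb: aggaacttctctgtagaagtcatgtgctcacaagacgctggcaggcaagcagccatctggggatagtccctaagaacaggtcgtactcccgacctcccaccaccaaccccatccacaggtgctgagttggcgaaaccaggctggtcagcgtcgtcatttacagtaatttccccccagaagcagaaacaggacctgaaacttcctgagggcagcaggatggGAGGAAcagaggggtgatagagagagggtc
GAGGAA was found on either strand in 6 of the 8 windows, C1qb, C1qc, Mrc1, Aif1, Fcgr3 and Cd68, against 23.4% of all 32544 promoter windows of this length. TTNNGNAA, a C/EBP word, was found in 5 of the 8 and in 36.8% of all windows, and the MAF half-site TGCTGA in 3 of the 8 and in 16.1%. TGANTCA, the AP-1 word, was found in 1 of the 8, Cd68, and in 6.73% of all windows. AATATT, an A/T-rich word of the kind read by Spalt-like zinc fingers, was found in 0 of the 8 and in 6.13% of all windows. A match of letters only describes the window.

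Sall1 itself had 113 and 96.0 CPM in the mutant libraries and 16.2 and 12.6 CPM in the wild-type libraries, so that the groups lay far apart. Of the 10 macrophage genes, 0 passed the test between mutant and wild-type ovaries, and 0 had an unadjusted p under 0.05. The test was the quasi-likelihood test of edgeR, adjusted by Benjamini-Hochberg over all genes tested. Of all genes tested, 0.0583% passed and 5.69% had an unadjusted p under 0.05. The counts of 0 are near these shares and do not show that the 10 genes were unchanged. DESeq2 called 0 of the 10, against 0.714% of the genes it tested. The log2 fold changes (mutant over wild type) ranged from -0.95 for Lyz2 to 0.43 for Csf1r, with 7 genes above 0 and 3 below. The 95% intervals of the 10 reached at most 1.36, for Lyz2, whose interval began at -3.25. That of Sall1 lay higher, from 2.47 to 3.24. The median log2 fold change of the 10 was 0.16, against -0.00088 over all genes tested. This median turned to -0.17 without mutant replicate 1 and to -0.070 without wild-type replicate 2, and rose to 0.35 without mutant replicate 2 and to 0.41 without wild-type replicate 1. In bulk RNA, fewer macrophages and less of a transcript per macrophage cannot be told apart.

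**Figure D1:**
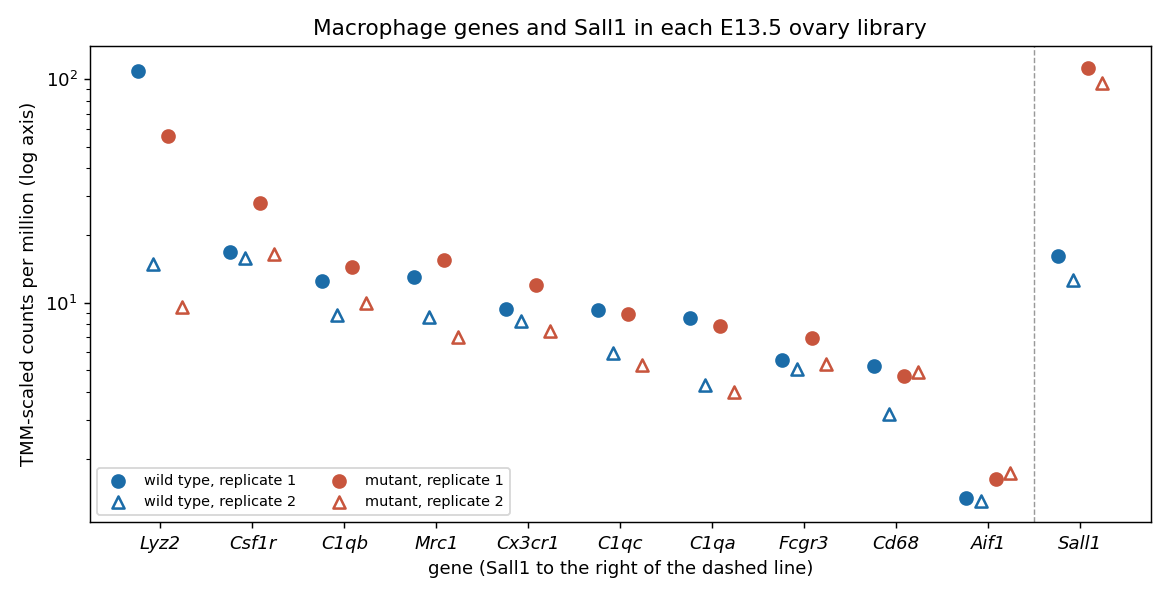
TMM-scaled CPM (log axis) of the 10 macrophage genes and of Sall1 in each of the 4 libraries; blue marks wild type, red marks mutant, circles mark replicate 1 and open triangles replicate 2. Sall1 separates the genotypes, while for 8 of the 10 macrophage genes both circles lie above both triangles.

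The order of the libraries was also compared with that of Sall1. Sall1 was highest in mutant replicate 1, followed by mutant replicate 2, wild-type replicate 1 and wild-type replicate 2. Among all genes tested 4.39% had this order, and among the 10 macrophage genes 0 did. With so small a share, 0 of 10 does not set these genes apart from others. The highest library was mutant replicate 1 for 5 genes, wild-type replicate 1 for 4 genes and mutant replicate 2 for 1 gene. The 2 groups did not overlap for 1 of the 10, Aif1, with both mutant libraries above both wild-type ones, where 30.9% of all genes tested did not overlap in either direction. Within replicate 1 the mutant level was the higher for 6 genes and within replicate 2 for 5 genes, and for 3 genes the direction differed between the replicates.

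Csf1r, the receptor for the growth factors Csf1 and Il34, had 27.9 and 16.6 CPM in the mutant libraries and 16.9 and 15.9 CPM in the wild-type libraries. Only mutant replicate 1 stood above the rest. The log2 fold change was 0.43 (SE, standard error, 0.24), with a 95% interval from -0.15 to 1.01 and an adjusted p of 1.00 in edgeR's test. Without mutant replicate 1 it was 0.013. Exons of Csf1r share 871 bases with Hmgxb3 on the opposite strand, and whether the counting kept the strands apart is not given in the sources used here. Cx3cr1, the receptor for the chemokine Cx3cl1, had 11.98 and 7.51 CPM in the mutant and 9.42 and 8.27 CPM in the wild-type libraries. Its wild-type levels lay inside the mutant range, and the log2 fold change was 0.13 (SE 0.26).

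The ligands of both receptors were measured beside them. Cx3cl1 had 25.1 and 22.7 CPM in the mutant and 20.1 and 14.1 CPM in the wild-type libraries, and its log2 fold change of 0.48 (SE 0.19) did not pass (adjusted p = 0.849, edgeR). Csf1 had 4.90 and 4.59 CPM in the mutant and 6.74 and 4.99 CPM in the wild-type libraries, with a log2 fold change of -0.31 (SE 0.27). Il34 had 3.45 and 2.53 CPM against 2.32 and 2.89 CPM, with a log2 fold change of 0.19 (SE 0.34). The groups did not overlap for Cx3cl1, higher in the mutants, and for Csf1, lower in the mutants, but did for Il34. Of all genes tested, 30.9% did not overlap in either direction. Of the 3 ligands 0 passed, and Cx3cl1 was the most abundant.

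The C1q chains form the recognition molecule of the classical complement pathway and are made chiefly by tissue macrophages. Their genes lie side by side on the minus strand of chromosome 4, within 136436044 to 136454718 (NCBIM37, GENCODE M1), in the order C1qb, C1qc, C1qa. C1qa had 7.89 and 3.99 CPM in the mutant and 8.54 and 4.31 CPM in the wild-type libraries. C1qc had 8.89 and 5.25 CPM in the mutant and 9.24 and 5.95 CPM in the wild-type libraries, and C1qb had 14.5 and 9.97 CPM against 12.6 and 8.84 CPM. For all 3 chains the replicate 1 libraries of both genotypes were close to each other and above both replicate 2 libraries. The genotype differences were correspondingly small, with log2 fold changes of -0.13 (SE 0.44), -0.11 (SE 0.34) and 0.19 (SE 0.26) for C1qa, C1qc and C1qb. Per kilobase of exon, C1qb was the most abundant chain with a mean of 10.5 CPM, followed by C1qa with 5.95 and C1qc with 3.80 CPM.

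Mrc1, the mannose receptor CD206 used as a marker of tissue-resident macrophages, had 15.5 and 7.05 CPM in the mutant and 13.02 and 8.61 CPM in the wild-type libraries. Its mutant levels enclosed the wild-type ones, and the log2 fold change was 0.05 (SE 0.38). Fcgr3, a receptor for IgG, had 6.99 and 5.32 CPM against 5.52 and 5.04 CPM, with a log2 fold change of 0.21 (SE 0.26). It shares 12.8% of its 50-base words with Fcgr2b, and its counts are therefore less certain. Cd68, a glycoprotein of late endosomes and lysosomes, had 4.72 and 4.92 CPM against 5.23 and 3.17 CPM, with a log2 fold change of 0.20 (SE 0.32). Aif1, the actin-binding protein Iba1, had 1.63 and 1.73 CPM against 1.34 and 1.30 CPM. It was the lowest of the 10, with 18 to 26 counts, and its log2 fold change of 0.35 (SE 0.38) was within the error of the fit.

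Lyz2, lysozyme M, was set apart from the other 9 genes. It had 109 CPM in wild-type replicate 1 and 55.9 CPM in mutant replicate 1, but 14.9 CPM in wild-type replicate 2 and 9.57 CPM in mutant replicate 2. The spread between replicates therefore exceeded any difference between genotypes, with mean levels of 32.7 ± 32.8 CPM (SD, n = 2) for the mutants and 62.1 ± 66.7 CPM (SD, n = 2) for wild type. The log2 fold change of -0.95 (SE 0.97) had a 95% interval from -3.25 to 1.36. With the replicate number added to the fit, Lyz2 was the 1 gene of the 10 called, lower in the mutants by -0.84 on the log2 scale (adjusted p = 0.000936, edgeR), where 2.49% of all genes tested were called. Without that term, its fold change became -2.70 without mutant replicate 1 and 1.11 without wild-type replicate 1. Lyz2 supplied 57.2% of the summed CPM of the 10 genes in wild-type replicate 1 and 35.9% in mutant replicate 1. In the replicate 2 libraries these shares were 19.5% for wild type and 13.3% for mutant.

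A comparison by replicate number, with genotype kept in the fit, showed where the levels of these genes differed. In replicate 2, 9 of the 10 genes were lower than in replicate 1, where 51.4% of all genes tested were lower. The median log2 difference (replicate 2 over replicate 1) was -0.47, against -0.0077 over all genes tested, and -0.42 without Lyz2. Lyz2, C1qa and Mrc1 passed, 3 of 10, where 4.29% of all genes tested passed in either direction and 2.73% as lower in replicate 2. An unadjusted p under 0.05 was reached by 7 of the 10, all lower in replicate 2, where 17.4% of all genes tested reached it in either direction and 9.59% as lower. This fit leaves 1 residual degree of freedom per gene. DESeq2 called only Lyz2, against 0.521% of the genes it tested as lower in replicate 2, and without the genotype term edgeR called 0 of the 10, where Lyz2 had an adjusted p of 0.0992, C1qa of 0.190 and Mrc1 of 0.197.

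**Figure D2:**
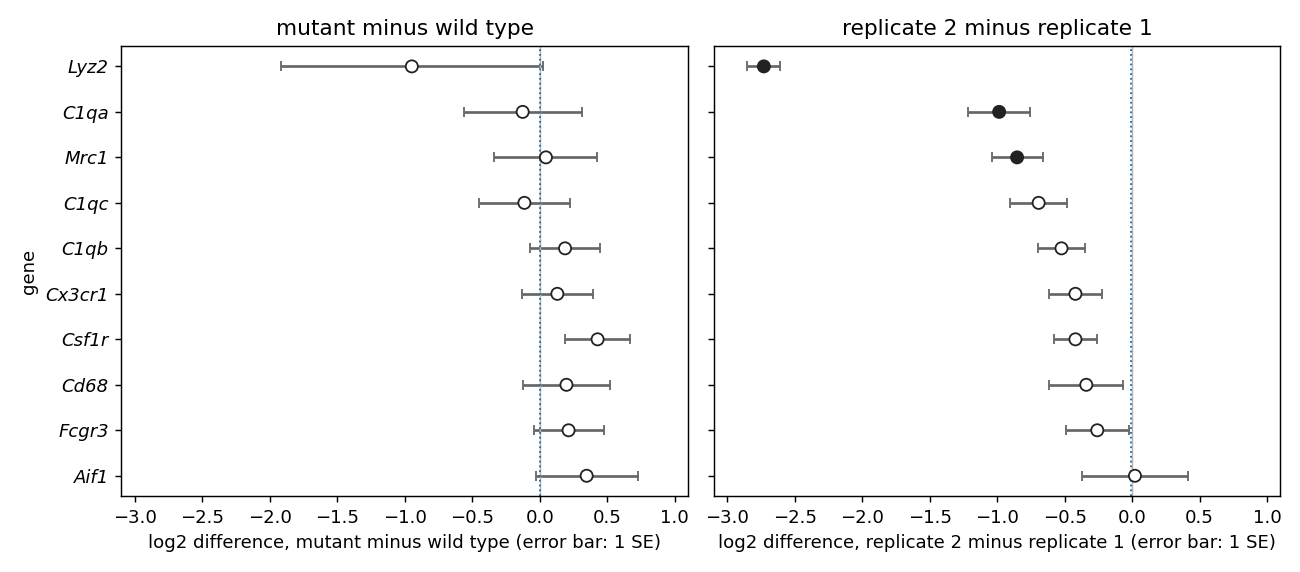
Log2 difference of each macrophage gene between genotypes (left) and between replicate numbers (right), with bars of 1 standard error; filled circles passed at an adjusted p under 0.05 in edgeR's test, and the dotted line is the median of all genes tested. On the left 0 of 10 genes passed, whereas on the right 9 of 10 lie below 0 and Lyz2, C1qa and Mrc1 passed.

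Lyz2 differed by -2.73 (SE 0.12, adjusted p = 8.08e-09, edgeR), and of 15442 genes it had the smallest p, rank 1. Within the mutants it differed by -2.53 and within wild type by -2.86. C1qa differed by -0.99 (SE 0.23, adjusted p = 0.0231, edgeR), by -0.96 within the mutants and by -0.97 within wild type. Mrc1 differed by -0.85 (SE 0.19, adjusted p = 0.0175, edgeR), with -1.12 in the mutant and -0.59 in the wild-type libraries. These 3 genes were thus lower in replicate 2 of both genotypes.

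The other 7 genes did not pass. C1qc and C1qb had log2 differences of -0.69 and -0.52 with adjusted p-values of 0.0816 and 0.111 in edgeR's test. Csf1r and Cx3cr1 each had -0.42, and in both the difference was larger between the mutant libraries, at -0.75 and -0.66, than within wild type, at -0.091 and -0.18. With 4 libraries, whether the replicates differ more in 1 genotype could not be tested. Fcgr3 and Aif1 had log2 differences of -0.26 and 0.02. Cd68 had -0.34, which came from the wild-type libraries (-0.70 within wild type and 0.058 within the mutants). Without wild-type replicate 1 or 2 the fitted value was 0.078 or 0.080, but it then rests on the mutant libraries alone and is no separate check. Both replicate 1 libraries lay above both replicate 2 libraries for 8 of the 10 genes, all but Cd68 and Aif1, against 23.5% of all genes tested, and 0 of the 10 had the reverse, against 21.9%. Sall1 had a log2 difference of -0.28 (adjusted p = 0.166, edgeR) between the replicate numbers.

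Further macrophage genes were taken from lists of 9 regulators, 19 surface proteins and 12 lysosomal genes, of which 35 were tested. Between the genotypes 0 of these 35 passed, and 1 had an unadjusted p under 0.05. The most abundant regulators, Maf, Ikzf1 and Irf5, had log2 fold changes of -0.18, -0.25 and 0.06. The 16 surface genes tested had a median log2 fold change of 0.11, and the abundant Sirpa, Mertk and Stab1 had 0.01, 0.23 and 0.22.

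By replicate number, 15 of the 16 surface genes tested were lower in replicate 2, and 4 passed. Itgam, the integrin subunit CD11b, had 10.3 CPM in wild-type and 5.63 CPM in mutant replicate 1, and 2.83 and 1.33 CPM in replicate 2. Its log2 difference was -1.94 (SE 0.26, adjusted p = 0.000441, edgeR), and DESeq2 also called it. Lyve1, Timd4 and Msr1, receptors for hyaluronan, phosphatidylserine and modified lipoproteins, differed by -2.41, -2.72 and -2.29, with adjusted p-values of 0.00219, 0.0231 and 0.0111 in edgeR's test and none under 0.05 in DESeq2. They rested on few counts, at most 67 in a library. Of the 8 regulators tested 7 were lower and only Cebpb passed, with a log2 difference of -1.67 (adjusted p = 0.0167 in edgeR and 0.687 in DESeq2). The lysosomal genes, which most cells express, did not share the pattern, with 5 of 11 lower, 0 passed and a median of 0.02. Lamp1, Ctsd and Lamp2, the most abundant of them, had log2 differences of 0.03, 0.16 and -0.04.

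**Figure D3:**
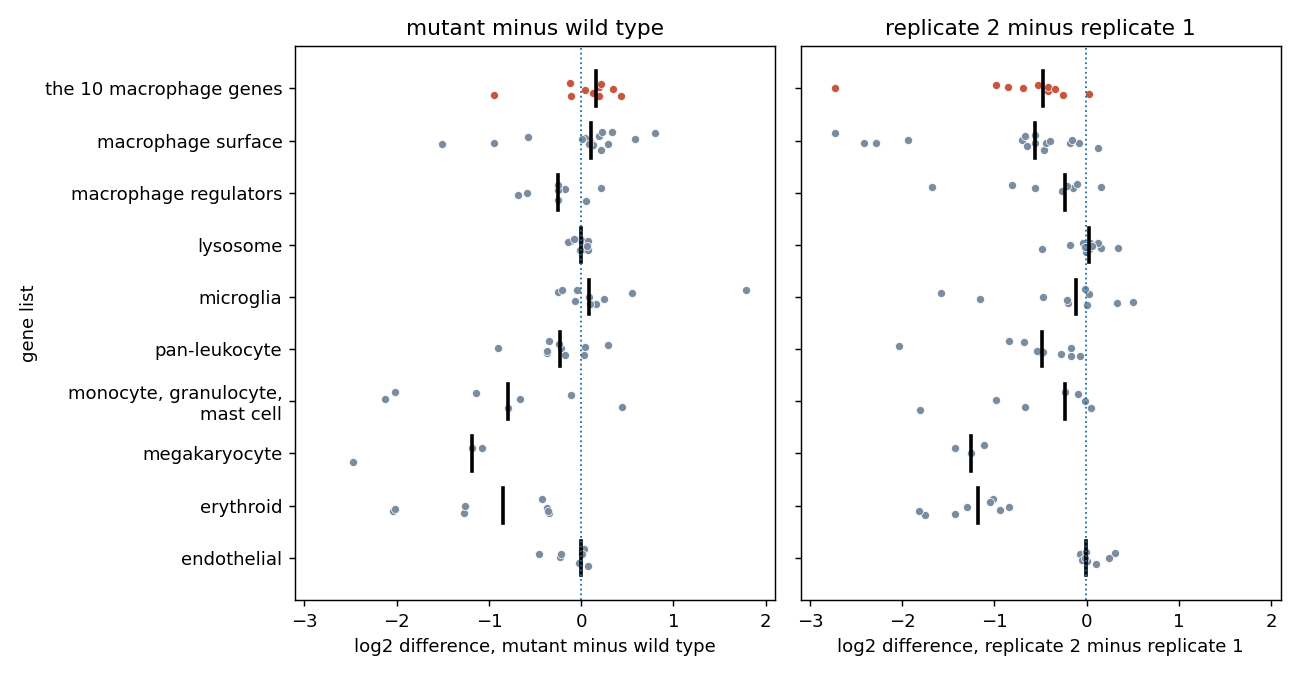
Log2 differences of the tested genes of each list between genotypes (left) and between replicate numbers (right); each point is a gene, the black bar is the list's median and the dotted line the median of all genes tested. By replicate number the macrophage genes, surface genes, pan-leukocyte and erythroid lists have medians of -0.47, -0.56, -0.48 and -1.17, whereas endothelial and lysosomal genes lie around 0.

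Because Sall1 marks microglia, 11 genes of microglia were listed, with Sall1 left out. Of the 10 tested, 0 passed between the genotypes and their median log2 fold change was 0.09. P2ry13, a purinergic receptor, had the largest change, 1.79 (SE 0.59, adjusted p = 0.704, edgeR), on 10 and 11 counts in the mutant and 3 and 5 in the wild-type libraries. P2ry12 had between 3 and 18 counts, and Tmem119, which stromal cells also express, had a log2 fold change of 0.16 (SE 0.23). Siglech, with 1 to 6 counts, did not pass the filter. Between the replicate numbers Cst3, an inhibitor of cysteine proteases, was higher in replicate 2, by 0.50 on the log2 scale (adjusted p = 0.00253, edgeR). Sparc, Cst3 and Olfml3, the most abundant genes of the list, are made by many cell types, and their log2 fold changes between genotypes were -0.07, -0.04 and 0.08.

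Markers of other cell types also differed by replicate number. Of the ovarian somatic genes 5 of 6 were lower in replicate 2, and Gata4 and Nr2f2 passed with log2 differences of -0.38 and -0.44 (adjusted p = 0.0108 and 0.0223, edgeR). Among 5 germ cell genes, Stra8, a gene of meiotic entry, passed as higher in replicate 2 by 0.47 (adjusted p = 0.0244, edgeR). DESeq2 called none of these 3. All 10 pan-leukocyte genes were lower in replicate 2, of which Itgb2, the partner of Itgam, passed with a log2 difference of -2.04 (adjusted p = 0.00193 in edgeR and 0.147 in DESeq2). The most abundant of them, Lcp1, Arhgdib and Laptm5, had -0.28, -0.69 and -0.49. The erythroid list was lower too, in 8 of 8 genes tested, and 6 passed. Hbb-y, Hba-x and Alas2 differed by -1.42, -1.75 and -1.81, each also called by DESeq2. Between the genotypes all 8 were lower in the mutants by fitted fold change, with a median of -0.84, and 0 passed. The summed level of the 9 matched erythroid genes was 3229 and 883 CPM in mutant replicates 1 and 2 and 3581 and 1745 CPM in the wild-type ones. All 3 megakaryocyte genes tested were lower, and Pf4 passed at -1.43 (adjusted p = 0.00888 in edgeR and 0.484 in DESeq2). The sum of the 10 macrophage genes without Lyz2 was 99.99 and 62.3 CPM in mutant replicates 1 and 2, against 81.8 and 61.4 CPM in the wild-type ones. The 8 endothelial genes, among them Pecam1, Cdh5 and Kdr, had a median of -0.0039 and 0 passed, with sums between 470 and 533 CPM. The part of blood cells or other cell types in the levels of the macrophage genes was not tested.

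**Figure D4:**
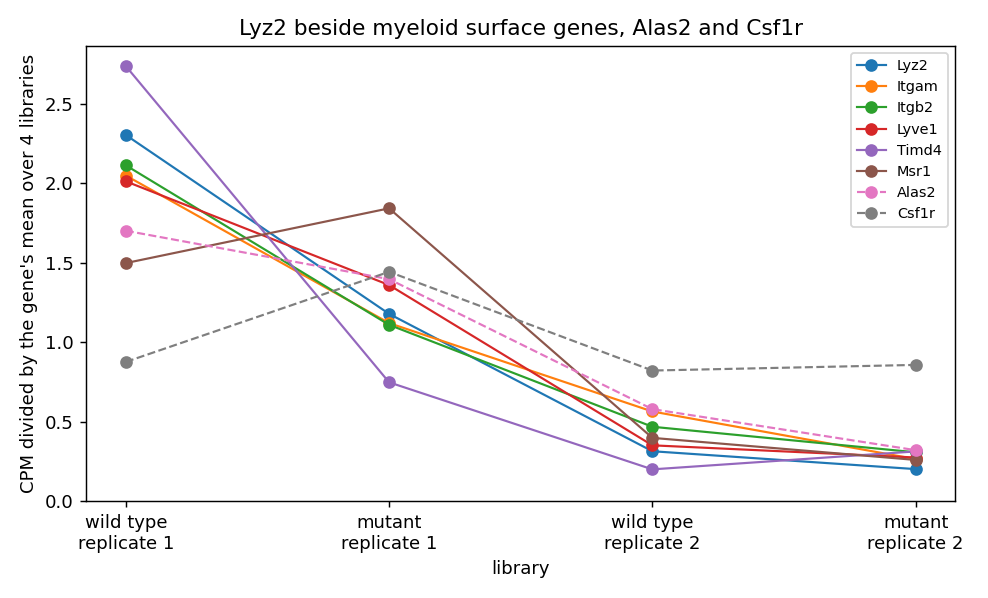
Level of Lyz2, of 5 myeloid genes that passed between the replicate numbers, and of Alas2 and Csf1r (dashed) in each library, as CPM divided by the gene's mean over the 4 libraries; the order of the libraries serves display only. Lyz2, Itgam, Itgb2, Lyve1 and the erythroid gene Alas2 are highest in wild-type replicate 1 and lowest in mutant replicate 2, and Csf1r is highest in mutant replicate 1.

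Lyz1, the neighbouring gene of Lyz2 whose upstream window is shown above, followed the same pattern at a lower level. It had 8.25 and 1.87 CPM in wild-type replicates 1 and 2 and 4.72 and 1.79 CPM in the mutant ones, and its log2 difference was -1.81 (adjusted p = 0.00206 in edgeR and 0.123 in DESeq2). Lyz2 shares 15.4% of its 50-base words with Lyz1, so that reads may have been divided between them. Lyz1 and Lyz2 lie next to each other on chromosome 10, Lyz2 from 116714390 to 116719377 and Lyz1 from 116724852 to 116729924 (NCBIM37, GENCODE M1). Per kilobase of exon, the mean level was 36.1 CPM for Lyz2 and 3.29 CPM for Lyz1. The other macrophage genes ranged from 0.979 CPM per kilobase for Aif1 to 10.5 for C1qb. In this order Csf1r (3.69), C1qc (3.80), Cd68 (3.59) and Fcgr3 (3.28) differed by less than their spread between libraries.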

How the data were processed

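RNA from E13.5 ovaries was sequenced in 4 libraries, 2 mutant and 2 wild-type. The authors aligned reads with STAR 2.6.1d and counted them per gene with summarizeOverlaps, and the deposited values are raw counts per library. The submitters' processing notes name mm9; the annotation and the handling of strands are not given in the sources used here. Columns were matched to libraries by genotype and replicate number, and 0 were left unused.

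Counts were analysed in R 4.3.3 with edgeR 4.0.16 (TMM, filterByExpr with a minimum count of 10, quasi-likelihood F-test, Benjamini-Hochberg adjustment over 15442 genes, threshold 0.05), with genotype as the only factor, or with genotype and replicate number to compare the replicates. DESeq2 1.42.0 was an alternative. The SE is the absolute log2 change divided by the square root of F. Differences within replicates or genotypes are of log2 CPM with a prior count of 2. Chi-square over degrees of freedom between replicates was 11.8 (mutant) and 13.2 (wild type), so none was a duplicate. For 1 gene, exact permutation of 2 and 2 libraries has a smallest p of 0.333. The fits were tested on simulated data.

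The genes and lists were chosen with earlier results of these data known. The genes named are the 10, Sall1, the ligands, the 3 most abundant genes of a list, list members that passed either fit, and the 5 nearest profiles; other marker genes were chosen after their values were seen. Single values of some listed genes are not reported here. Exon lengths, shared words and positions come from GENCODE M1 on NCBIM37, and promoters from RefSeq on GRCm38.p6. Alternatives were other normalizations and filters, DESeq2, the replicate block, no genotype term, and leaving out each library; medians without Lyz2 were added after seeing the data.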

Additional observations from a re-analysis of the deposited data

How the results depend on the processing

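Between the genotypes, 9 genes passed in all, 28 with no filter, 19 with at least 10 counts in every library and 105 with DESeq2. Adding the replicate block gave 385 genes (2.49% of those tested), among which 1 macrophage gene, Lyz2 (log2 fold change -0.84, adjusted p = 0.000936, edgeR), was lower in the mutants. The block changed no other call among the 10. The deviations of same-numbered libraries correlated at 0.481 across genes. In the column names, same-numbered libraries carry adjacent codes, and the codes of replicate 1 lie apart from those of replicate 2. The labels do not say that a number marks a shared litter or day. With each library left out, a lone library being assumed to vary like the other group, 4 (without wild-type replicate 2) to 130 genes (without mutant replicate 1) passed, and 0 of the 10 in each case, while the median log2 fold change of the 10 lay between -0.17 and 0.41. Between the replicate numbers, 662 genes passed, 125 with DESeq2 and 4 without the genotype term, and of the 10 macrophage genes 3, 1 and 0. The other normalizations and filters each called 3. Leaving out a library leaves that fit no residual degrees of freedom, so that values without a test were computed. Each such value rests only on the genotype that keeps both libraries. The values below therefore restate the differences within a genotype and are no check of robustness. The median difference of the 10 lay between -0.69 and -0.55, and Cd68 and Aif1 turned sign, between -0.72 and 0.080 and between -0.035 and 0.10. The cause of these changes was not tested. The low counts of Aif1, P2ry12 and Spi1 limit what could be detected.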

Other observations

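Unlike the erythroid genes, those of the monocyte, granulocyte and mast cell list and of the lymphoid list were at low levels in these ovaries. Mpo, the myeloperoxidase of granulocyte precursors, had 25 and 15 counts in the mutant and 156 and 86 counts in the wild-type libraries, with a log2 change of -2.12 (SE 0.48). It did not pass in edgeR (adjusted p = 0.356), but DESeq2 (adjusted p = 0.022) and the replicate block (adjusted p = 0.000733, edgeR) called it. Cpa3, a mast cell protease, had 17 and 5 counts against 66 and 61, with a log2 change of -2.02 (SE 0.61, adjusted p = 0.602, edgeR), and the replicate block called it too (adjusted p = 0.0161, edgeR). The monocyte, granulocyte and mast cell list had a median log2 fold change of -0.79 over 7 genes tested, of which 0 passed (2 with the replicate block, Mpo and Cpa3), and its summed level was 25.6 and 14.6 CPM in the mutant and 36.4 and 32.1 CPM in the wild-type libraries. The alarmins S100a8 and S100a9 differed from the macrophage genes in being highest in wild-type replicate 2, at 3.85 and 6.69 CPM. Of 6 lymphoid genes 1, Cd79a, was tested, and Cd3g had 0 counts in each library.

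The genes whose centred log2 CPM lay nearest to the median profile of the 10 macrophage genes over the 4 libraries were Tcaf2, Ccdc170, Pkd2l2, Meg3 and Apc2, with Euclidean distances from 0.050 to 0.065. Among the macrophage genes C1qb was nearest, at 0.10, and Lyz2 farthest, at 2.36. Of 14295 genes compared, 24 were nearer than C1qb.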
